A study of Homo sapiens with 29 samples.

Results

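The transforming growth factor-beta (TGF-beta) genes followed here were 10 in number, out of 35579 genes whose transcripts were summed. They were chosen by name, for their place in the pathway, with earlier results of these data known. TGFB1, TGFB2 and INHBA encode ligands, TGFBR1, TGFBR2 and TGFBR3 receptors, and SMAD3 the transcription factor that carries the signal. SMAD7 and SKIL restrain the pathway, and TGFBI is a secreted target gene. RNA was sequenced from 10 forms of PC9 cells, a line of lung adenocarcinoma with a mutant EGFR. PAR is the parental line, KO was derived from it by CRISPR knockout of AXL, and the rest are KO cells given AXL by lentivirus, either wild type (WT), kinase-dead (KD) or with phenylalanine in place of 1 tyrosine (Y634F, Y643F, Y698F, Y726F, Y750F and Y821F). The transduced lines were GFP-sorted populations rather than single clones, and by the paper's estimate most of their cells did not express AXL. Every line was sequenced untreated and after 24 h of 1 μM erlotinib (E), an EGFR inhibitor, and all lines but KO also after 24 h of erlotinib with 300 ng/mL of AF154 (EA), an antibody that activates AXL. The 10 untreated, 10 E and 9 EA libraries are 1 per line and treatment, and KO with EA was not analysed here. How long the untreated cells were cultured is not given in the sources used here. A difference in culture time and the effect of erlotinib therefore cannot be told apart.

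TGF-beta ligands are secreted in a latent form bound to the matrix and to cell surface proteins, and have to be released from it. Freed ligand binds a type II receptor, TGFBR2, which recruits and phosphorylates the type I receptor, TGFBR1, while TGFBR3 (betaglycan) presents the ligand, TGFB2 above all. The type I receptor then phosphorylates SMAD3 and its relative SMAD2, which enter the nucleus with SMAD4 and switch on target genes, among them their own inhibitors SMAD7 and SKIL (SnoN). In epithelial cells the pathway is known for arresting the cell cycle, for driving matrix production and for epithelial-mesenchymal transition, and it has been linked to tolerance of EGFR inhibitors in lung cancer cells. INHBA encodes the beta A chain of activin A, a ligand of other receptors that uses the same SMADs.

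The level of a gene is given in TPM, an abundance of transcripts scaled to their length in which all libraries have the same total. Depth is therefore unknown. The lines served as replicates, although they carry different receptors, and their spread is the error given. A p-value measures only the spread between these lines. The targeted gene AXL had 92.4 TPM in untreated KO and 79.3 TPM in KO with E, and between 217 and 852 TPM in the 27 other libraries. Epithelial markers (EPCAM, CDH1, KRT8, KRT18 and KRT19) summed to between 4251 and 5955 TPM in every library. By contrast, the 5 fibroblast markers summed to at most 4.03 TPM and the 4 leukocyte markers to at most 1.95 TPM. PAR stood apart from the other lines, with 17.4% of its TPM in mitochondrial genes with E where the 9 others had 12.3% to 14.2%, and the values that it moves most are also given without it. In bulk RNA, fewer cells that express a gene and less RNA per cell cannot be told apart.

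The 3 members that rose by more than 1 on the log2 scale with erlotinib (TGFB2, INHBA and SKIL), and TGFB1, which did not pass the test, had the following bases before their RefSeq starts (GRCh38.p14, 5′ to 3′, cut where an exon of a protein-coding gene begins). Capitals mark the core of the cAMP response element (TGACG or CGTCA) and the SMAD box (CAGAC or GTCTG). The TGFB2 window lies at chr1:218345086-218345335 on the plus strand and overlaps an exon of its antisense gene TGFB2-AS1. That of INHBA lies at chr7:41703109-41703340 on the minus strand, SKIL at chr3:170357465-170357677 on the plus strand and TGFB1 at chr19:41353923-41354168 on the minus strand.
TGFB2: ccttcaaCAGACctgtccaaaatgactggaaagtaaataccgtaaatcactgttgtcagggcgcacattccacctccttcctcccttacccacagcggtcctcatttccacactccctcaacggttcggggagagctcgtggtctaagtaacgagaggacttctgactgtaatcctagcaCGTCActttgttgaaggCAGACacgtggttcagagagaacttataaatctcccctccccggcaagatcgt
INHBA: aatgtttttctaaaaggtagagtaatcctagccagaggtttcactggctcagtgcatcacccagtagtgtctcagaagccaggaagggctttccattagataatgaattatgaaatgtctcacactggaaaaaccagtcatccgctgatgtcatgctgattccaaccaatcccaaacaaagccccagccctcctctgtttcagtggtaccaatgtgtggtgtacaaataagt
SKIL: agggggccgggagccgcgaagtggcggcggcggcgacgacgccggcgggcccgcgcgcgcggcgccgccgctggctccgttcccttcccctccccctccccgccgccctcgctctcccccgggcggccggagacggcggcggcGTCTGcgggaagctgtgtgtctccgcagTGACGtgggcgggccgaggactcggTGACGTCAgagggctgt
TGFB1: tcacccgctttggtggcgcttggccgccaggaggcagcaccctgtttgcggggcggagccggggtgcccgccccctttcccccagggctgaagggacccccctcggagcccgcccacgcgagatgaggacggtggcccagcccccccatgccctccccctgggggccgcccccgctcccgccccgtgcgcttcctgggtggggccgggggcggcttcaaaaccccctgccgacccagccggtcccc

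On both strands, the SKIL window held the full response element TGACGTCA once, which 1.65% of 35116 RefSeq promoter windows of 250 bases hold. Of its 3 matches to the core, 2 overlap in that palindrome. The TGFB2 window held the core once (21.2% of all windows) and the SMAD box 2 times (38% of all windows). Neither motif was found in the INHBA and TGFB1 windows, and the AP-1 motif TGACTCA or TGAGTCA, present in 4.20% of all windows, was in none of the 4. Guanine and cytosine made up 79.8% of the SKIL bases and 77.2% of the TGFB1 bases, against 50.4% in TGFB2 and 44.0% in INHBA. The starts themselves differ between annotations, and the RefSeq start lies 2481 bases upstream of the GENCODE start of the most abundant transcript for INHBA, 899 bases for TGFB2 and 11 bases for TGFB1 and SKIL. These are matches of letters in short windows.

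The first comparison asked how erlotinib alone changed the pathway's own genes. TGFB2, INHBA, SKIL and SMAD7 rose with E so far that every E library lay above every untreated library, TGFBR1, TGFBI and SMAD3 rose by less, TGFBR2 fell slightly, and TGFB1 did not pass the test. Of the 9 members with a mean of at least 1 TPM, 7 were higher and 1 lower at an adjusted p under 0.05 (limma on log2(TPM + 1) with the line as a block, Benjamini-Hochberg over 14111 genes). Erlotinib moved most of the transcriptome, since 35.5% of all genes tested were called higher and 36.3% lower. Of the 9 members, 3 rose by more than 1 on the log2 scale, as did 6.23% of all genes, and 4 of the 9 had E libraries wholly above the untreated ones, as did 12.6% of all genes. The median log2 change was 0.45 over the 9 members and 0.01 over all genes tested, and its median size was 0.45 against 0.37. The members were chosen with earlier results of these data known, so these contrasts describe them and are not a test.

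**Figure D1:**
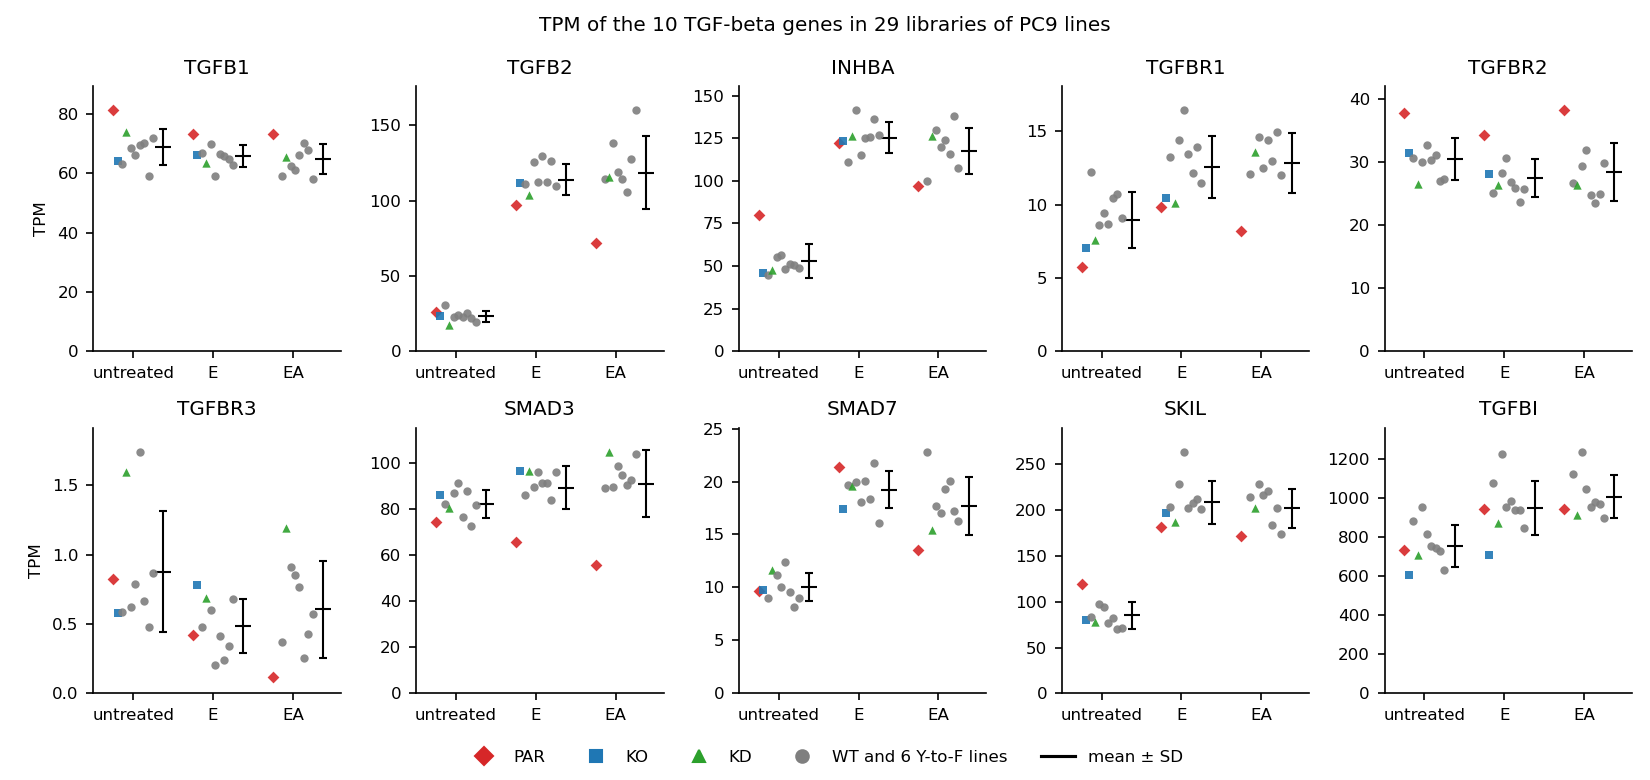
TPM (vertical axes from 0, a scale for each gene) of the 10 genes in untreated, E and EA libraries, with a point per line and the mean ± SD of each treatment beside it. TGFB2, INHBA, SKIL and SMAD7 lie higher in all 10 E libraries than in any untreated one, TGFB1 lies between 58.2 and 81.3 TPM throughout, and PAR is often at the edge of a group.

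Among the ligands, TGFB2 (ENSG00000092969, chromosome 1 from 218346235 to 218444619 in GENCODE release 29, GRCh38) changed most of all members. Its untreated level ran from 17.2 TPM in KD through a median of 23.0 TPM to 31.1 TPM in WT, and its level with E from 97.4 TPM in PAR through a median of 112 TPM to 130 TPM in Y698F. The groups did not overlap, and PAR, the lowest with E, was far above WT, the highest untreated. TGFB2 rose from 23.4 ± 3.74 TPM to 114 ± 10.2 TPM (SD, n = 10 lines), a ratio of the means of 4.88. Its log2 change was 2.25 (SE 0.07, adjusted p = 1.1e-11 from limma), with a rise in 10 of 10 lines. Only 0.517% of all genes tested rose more. The smallest rises within a line were 1.80 in WT and 1.86 in PAR on the log2 scale and the largest was 2.52 in KD.

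TGFB1 (ENSG00000105329, chromosome 19 from 41301587 to 41353911), the ligand usually studied, had between 59.3 and 81.3 TPM untreated (median 69.1) and between 59.2 and 73.2 TPM with E (median 66.0). The groups overlapped almost entirely. Its log2 change was -0.06 (SE 0.04, adjusted p = 0.197 from limma). It was higher in 4 of 10 lines and lower in 6, and it changed sign under quantile normalization. On the opposite strand its exons share 215 bases with those of HNRNPUL1, which had a mean of 178 TPM, and the strand handling of the quantification is not given in the sources used here.

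INHBA (ENSG00000122641, chromosome 7 from 41667168 to 41705834) ran from 44.6 TPM in WT through a median of 49.8 TPM to 79.8 TPM in PAR untreated. With E it ran from 111 TPM in WT through a median of 125 TPM to 141 TPM in Y634F, and the groups did not overlap. The second highest untreated library, Y643F, was at 56.5 TPM, so PAR alone stood high before treatment. INHBA rose from 53.0 ± 10.2 to 125 ± 8.88 TPM (SD, n = 10 lines), a log2 change of 1.24 (SE 0.07, adjusted p = 2.1e-09 from limma) in 10 of 10 lines. Without PAR the untreated level was 50.0 ± 3.98 TPM (SD, n = 9 lines) and the change 1.31.

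By the TPM of whole genes, the ligands thereby changed order. Per length, TGFB2 had 0.34 ± 0.07 times the TPM of TGFB1 untreated (SD, n = 10 lines) and 1.74 ± 0.18 times with E. Untreated, the ratio lay below 1 in every line, from 0.23 in KD to 0.49 in WT. It lay above 1 in 10 of 10 lines with E, from 1.33 in PAR to 1.95 in Y698F. INHBA went the same way, from 0.77 ± 0.10 to 1.91 ± 0.15 times TGFB1 (SD, n = 10 lines), below 1 in all lines untreated and above 1 in all lines with E. With EA the TGFB2 ratio was above 1 in 8 of 9 lines, with 0.98 in PAR and 2.75 in Y821F at the ends. These ratios count all transcripts, and TGFB2-203, annotated as not coding, held 29.6% of the TPM of TGFB2 untreated and 26.5% with E. With E, the main coding transcripts overlapped, with 63.2 to 85.4 TPM for TGFB2-202 and 56.9 to 69.2 TPM for TGFB1-201. A ratio of coding transcripts alone was not made.

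**Figure D2:**
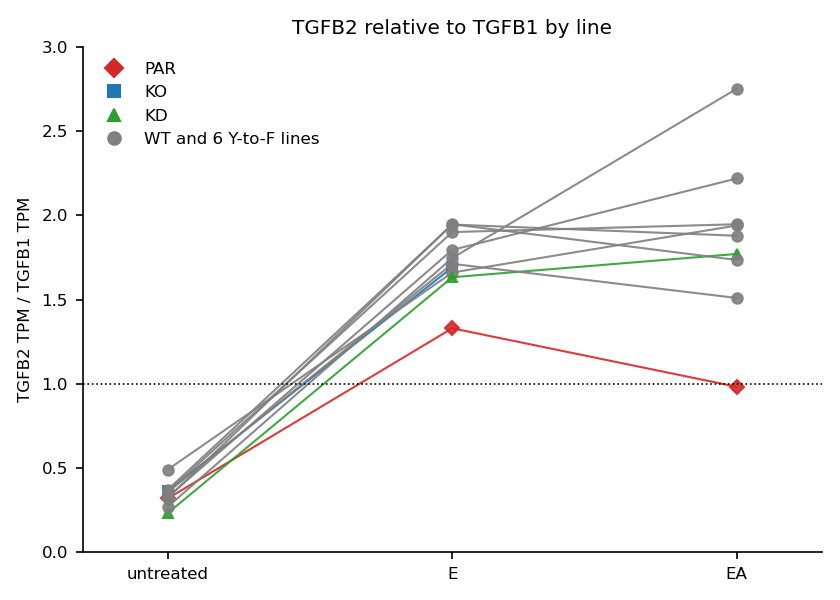
TPM of TGFB2 divided by TPM of TGFB1 (vertical axis) in each line untreated, with E and with EA, with the points of a line joined and a dotted line at a ratio of 1. All 10 lines cross from below 1 to above 1 with E, and PAR returns to 0.98 with EA while the other 8 lines stay above 1.

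The authors' quantification divides TGFB2 among 4 transcripts. Most of its TPM went to TGFB2-202 (protein coding, 4969 bases), with 15.3 TPM untreated and 75.2 TPM with E. TGFB2-203, a short transcript annotated as processed and not coding, had 6.92 and 30.2 TPM. TGFB2-201 (protein coding, 5053 bases), which shares both ends with TGFB2-202, had 0.86 and 7.29 TPM. All 3 were higher with E in 10 of 10 lines. The share of TGFB2-201 in the TPM of this coding pair was 5.27 ± 2.25% untreated and 8.91 ± 1.49% with E (SD, n = 10 lines). It was larger with E in 10 of 10 lines, by 3.63 percentage points on average. The comparison was chosen after the values were seen, so no p-value is given for it. Untreated, TGFB2-201 lay low, between 0.36 and 1.84 TPM. With EA the share was 10.6 ± 2.99% (SD, n = 9 lines), and in the 8 lines left when KD and KO are set aside it differed from E by 1.51 points, with 5 of 8 higher. Nearly all of TGFB1 went to TGFB1-201, with 96.4% of its TPM untreated and 96.8% with E. For INHBA, INHBA-203 held 60.2% untreated and 57.7% with E, and INHBA-201 26.9% and 29.5%. The exons of TGFB2 share 1371 bases with those of TGFB2-OT1 on the same strand, which was not in the table. How reads of overlapping transcripts were divided is the authors' assignment.

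TGFBR1 and TGFBR2 changed by less than TGFB2, INHBA, SKIL and SMAD7. TGFBR1 (ENSG00000106799, chromosome 9 from 99104038 to 99154192), the type I receptor kinase, ran from 5.76 TPM in PAR through a median of 8.89 TPM to 12.2 TPM in WT untreated. With E it ran from 9.85 TPM in PAR through 12.7 TPM to 16.4 TPM in Y643F, and the groups overlapped, with untreated WT above the E level of 5 lines. Within lines it rose in 10 of 10, by 0.45 on the log2 scale (SE 0.07, adjusted p = 5.9e-05 from limma), from 0.11 in WT to 0.74 in Y643F. TGFBR2 (ENSG00000163513, chromosome 3 from 30606502 to 30694142), the type II receptor, ran from 26.5 to 37.7 TPM untreated (median 30.5) and from 23.7 to 34.2 TPM with E (median 26.6), with PAR highest in both. The groups overlapped, yet it fell in 10 of 10 lines, by a log2 change of -0.14 (SE 0.04, adjusted p = 0.0033 from limma). In KD the change was -0.0076. The call was lost without the line block (adjusted p = 0.0582 from limma). A fall in every line held for TPM as deposited only. With library medians centred the change was 0.09 in PAR and reached 0.02 among the other lines. With mitochondrial genes left out it was -0.08 in PAR and again reached 0.02 among the others.

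TGFBR3 (ENSG00000069702, chromosome 1 from 91680343 to 91906335), the co-receptor, was barely detected. It had between 0.48 and 1.74 TPM untreated, between 0.21 and 0.78 TPM with E and between 0.12 and 1.2 TPM with EA. With a mean of 0.66 TPM it did not reach the minimum of 1 TPM and was not tested. When all genes above 0 in at least 1 library were tested, its log2 change with E was -0.32 (SE 0.10, adjusted p = 0.0292 from limma), with 9 of 10 lines lower. The addition of 1 TPM before the log understates changes at such levels. Its most abundant transcript, the coding TGFBR3-201, had 0.45 ± 0.12 TPM untreated and 0.11 ± 0.09 TPM with E (SD, n = 10 lines), higher in 0 of 10 lines. The depth behind values this low is not known. TGFBR2 kept a higher TPM than TGFBR1 in all 29 libraries, 3.59 ± 1.18 times untreated and 2.25 ± 0.54 times with E (SD, n = 10 lines). The ratio was largest in PAR, at 6.54 untreated and 3.48 with E.

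SMAD3 (ENSG00000166949, chromosome 15 from 67063763 to 67195195), the transducer, ran from 72.7 TPM in Y750F through a median of 82.1 TPM to 91.1 TPM in Y643F untreated. With E it ran from 65.9 TPM in PAR through 91.4 TPM to 96.7 TPM in KO, and the groups overlapped. It rose in 9 of 10 lines and was lower in PAR, with a mean log2 change of 0.12 (SE 0.04, adjusted p = 0.0213 from limma). The call was lost without KD, without Y698F and without Y821F (adjusted p up to 0.0533), and without the line block (0.0908) and when only the 8 lines that are neither KD nor KO were used (0.106). Without PAR the change was 0.15. On the opposite strand its exons share 182 bases with those of AC087482.1, which was not in the table.

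Both inhibitors rose. SKIL (ENSG00000136603, chromosome 3 from 170357678 to 170396835), which represses SMAD-bound genes, ran from 70.7 TPM in Y750F through a median of 81.0 TPM to 119 TPM in PAR untreated. With E it ran from 182 TPM in PAR through 203 TPM to 263 TPM in Y643F, with no overlap of the groups. Its TPM rose from 85.3 ± 14.7 to 208 ± 23.2 (SD, n = 10 lines), a log2 change of 1.29 (SE 0.07, adjusted p = 2.2e-09 from limma) in 10 of 10 lines. PAR began highest and ended lowest, with a rise of 0.61 where the other 9 lines rose by 1.22 to 1.57, and without it the mean change was 1.36. The most abundant coding transcript, SKIL-201, went from 17.3 to 45.7 TPM and was higher in 10 of 10 lines. It held 20.3% of the TPM of SKIL untreated and 21.9% with E. Mean TPM also rose for the coding transcripts SKIL-203 (10.4 to 21.4), SKIL-204 (8.52 to 19.3) and SKIL-202 (4.91 to 9.03). SKIL-210, SKIL-208 and SKIL-205, none of them coding and none over 599 bases long, each held between 15.1% and 17.8% of the TPM of SKIL untreated and between 13.8% and 20.3% with E.

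SMAD7 (ENSG00000101665, chromosome 18 from 48919853 to 48952052), which blocks the type I receptor, was the lower of the pair. Untreated it ran from 8.13 TPM in Y750F through a median of 9.69 TPM to 12.4 TPM in Y698F, and with E from 16.1 TPM in Y821F through 19.6 TPM to 21.8 TPM in Y750F. The groups did not overlap, and the line that was lowest untreated was highest with E. SMAD7 rose from 10.04 ± 1.32 to 19.2 ± 1.77 TPM (SD, n = 10 lines), a log2 change of 0.88 (SE 0.07, adjusted p = 4.2e-08 from limma) in 10 of 10 lines. Its main coding transcript SMAD7-201 went from 5.80 to 12.1 TPM and was higher in 10 of 10 lines.

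TGFBI (ENSG00000120708, chromosome 5 from 136028895 to 136063818), a matrix protein named for its induction by TGF-beta, was the most abundant member by far. It ran from 606 TPM in KO through a median of 740 TPM to 955 TPM in Y634F untreated, and from 711 TPM in KO through 942 TPM to 1225 TPM in Y634F with E. The groups overlapped, the lines differed more from each other than E changed any of them, and KO and Y634F were at the ends both times. Within lines the rise was small and even, at 0.33 on the log2 scale (SE 0.02, adjusted p = 3.3e-08 from limma) in 10 of 10 lines, between 0.23 and 0.43.

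**Figure D3:**
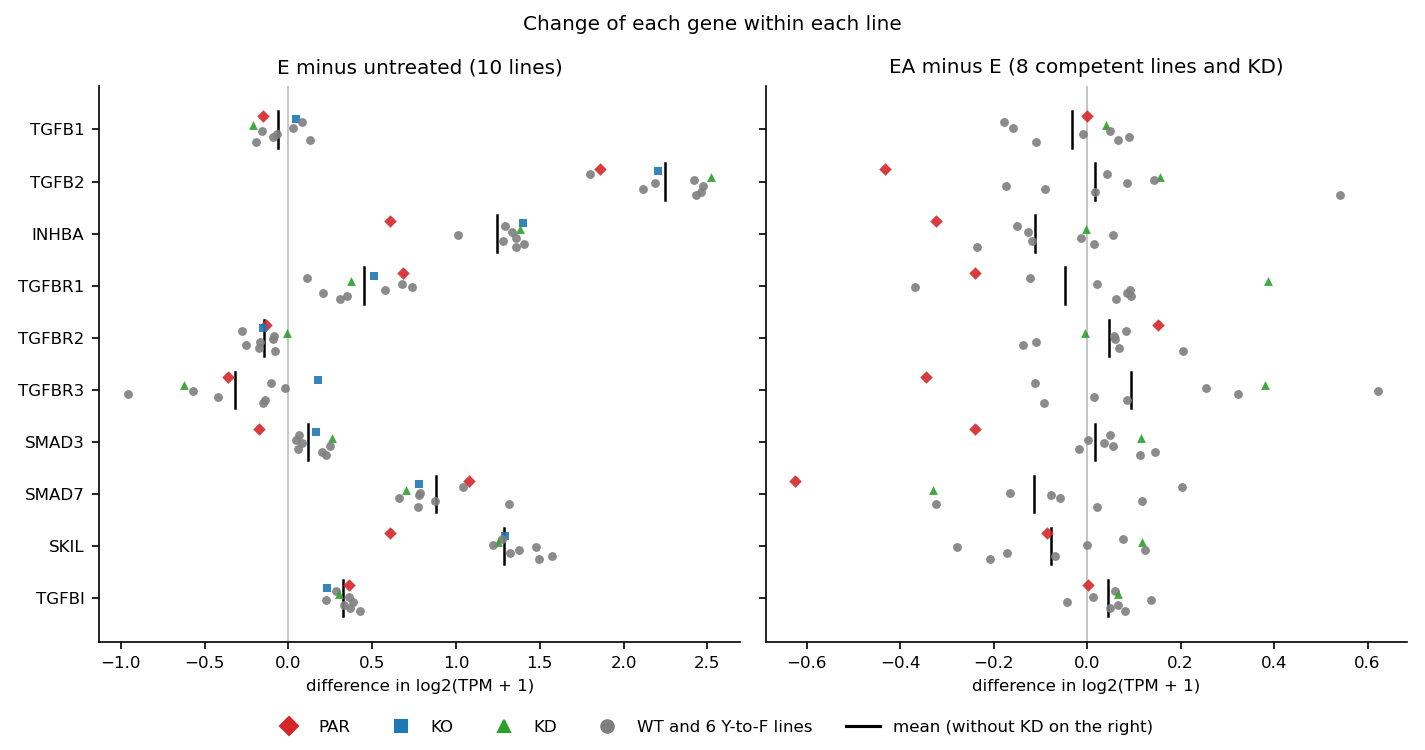
Difference in log2(TPM + 1) within each line (horizontal axes, which differ in scale) for the 10 genes, with a point per line and a black bar at the mean. On the left (E minus untreated), TGFB2, SKIL, INHBA and SMAD7 lie right of 0 in all 10 lines, and on the right (EA minus E) the points of each gene scatter around 0, with PAR at the low end for TGFB2, INHBA, SMAD3 and SMAD7.

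The second comparison asked what activating AXL with AF154 added to erlotinib, in the 8 lines that are neither KD nor KO. They are called competent lines here, although the paper reports that Y643F and Y750F resembled KO or KD in proliferation and apoptosis. By the paper's estimate most cells of the transduced lines did not express AXL, so their values join cells with and without it. Its bearing on the changes was not tested. None of the 9 members tested passed the threshold in limma, where 0.475% of all genes did, and 1 of the 9 (INHBA) had an unadjusted p under 0.05, where 16.9% of all genes had. INHBA ran from 111 TPM in WT through a median of 125 TPM to 141 TPM in Y634F with E, and from 97.2 TPM in PAR through 118 TPM to 138 TPM in Y750F with EA, and the groups overlapped. Its log2 change was -0.11 (SE 0.04, adjusted p = 0.229 from limma), with 6 of 8 lines lower. TGFB2 ran from 97.4 TPM in PAR through a median of 113 TPM to 130 TPM in Y698F with E, and from 71.9 TPM in PAR through 117 TPM to 160.2 TPM in Y821F with EA. Its groups overlapped too, and the spread was wider with EA. The log2 change was 0.02 (SE 0.08, adjusted p = 0.944 from limma). That mean joins lines that went apart, with 0.54 in Y821F and -0.43 in PAR. Without PAR it was 0.08 (SE 0.07, adjusted p = 0.654 from limma), and TGFB2 with EA had 125 ± 17.4 TPM (SD, n = 8 lines, KD included) where all 9 lines gave 119 ± 24.0 TPM.

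For the other members the log2 changes with AF154 ran from -0.11 for SMAD7 (SE 0.08) to 0.05 for TGFBR2 (SE 0.05) and TGFBI (SE 0.03), with adjusted p from 0.42 to 0.87 in limma. For SMAD7 the change was -0.63 in PAR, from 21.4 to 13.5 TPM, and 0.20 in WT, from 19.6 to 22.8 TPM. Without PAR the mean change of SMAD7 was only -0.04 (SE 0.07, adjusted p = 0.833 from limma). That of SMAD3 went from 0.02 to 0.05 and that of TGFBR1 from -0.05 to -0.02 when PAR was left out. The log2 change of SKIL was -0.08 (SE 0.05, adjusted p = 0.437 by limma), and 5 of 8 lines were lower. TGFBI was higher in 7 of 8 lines by a mean of only 0.05 (adjusted p = 0.42 from limma). The median over the 9 members was -0.03, against 0.01 over all genes tested. In KD, with 1 pair of libraries and so no replicate error, TGFBR1 differed by 0.39, above the 8 competent lines (-0.37 to 0.09), and the other 8 tested members lay within their range. SMAD7 in KD (-0.33) did so only through PAR (-0.63), since the next lowest competent line, Y750F, was at -0.32. Over all genes tested, KD lay outside the range of the competent lines in 19.3%.

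Set directly beside untreated cells, EA cells differed most in the same members as E cells. TGFB2 was 2.24 ± 0.47 higher with EA than untreated on the log2 scale (SD, n = 8 competent lines), SKIL 1.22 ± 0.31, INHBA 1.09 ± 0.35 and SMAD7 0.80 ± 0.26. Without PAR the values were 2.35 ± 0.37, 1.32 ± 0.14, 1.21 ± 0.13 and 0.85 ± 0.24 in the same order (SD, n = 7 lines). Each of the 4 was higher in 8 of 8 lines, with no overlap between the EA and untreated libraries of these lines, a separation in this direction that 11.1% of all genes tested had. TGFB1 differed by -0.08 ± 0.14, with 7 of 8 lower. These values share their libraries with both tested comparisons and were not tested.

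PAR, the only line with its own AXL and no history of knockout, differed from the 9 others in several members. With 1 parental line no test was made, since an exact test of 1 line against 9 cannot go below p = 0.1. TGFB1 was higher in PAR than in every other line in all 3 treatments, at 81.3 TPM untreated (others 59.3 to 73.8), 73.2 TPM with E (59.2 to 69.9) and 73.2 TPM with EA (58.2 to 70.1). So was TGFBR2, with 37.7 TPM (others 26.5 to 32.7), 34.2 TPM (23.7 to 30.6) and 38.2 TPM (23.4 to 31.9). PAR lay above the other lines in all 3 treatments in 7.2% of all genes tested. TGFBR1 was lower in PAR in all 3, at 5.76 TPM (others 7.04 to 12.2), 9.85 TPM (10.1 to 16.4) and 8.19 TPM (12.03 to 14.9), as were 9.81% of all genes. TGFB1 and TGFBR2 stayed above with library medians centred and with mitochondrial genes left out, whereas TGFBR1 did not stay below under either. With medians centred SMAD3 came to lie below the other lines in all 3 treatments, as did 8.33% of all genes, and 8.55% lay above.

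The change with erlotinib was lower in PAR than in all 9 other lines for INHBA (0.60, others 1.01 to 1.41 on the log2 scale), SKIL (0.61, others 1.22 to 1.57) and SMAD3 (-0.17, a fall, others 0.04 to 0.26). It lay above the others for 0 members. Over all genes tested, the change in PAR lay below the 9 others in 31.7% and above them in 8.57%. Its median change over all genes was -0.16 where the other lines had medians from -0.03 to 0.07, with a rise of its mitochondrial share by 2.99 percentage points. Relative to that shift, with library medians centred, INHBA (0.83, others 0.98 to 1.41) and SKIL (0.83, others 1.24 to 1.56) stayed below, SMAD3 (0.05, others 0.04 to 0.29) did not, and TGFBR1, TGFBR2 and TGFBI lay above. With that centring PAR lay below the others in 14.6% of all genes tested and above them in 23.6%. For INHBA and SKIL the smaller change came with higher untreated levels, 79.8 TPM (others 44.6 to 56.5) and 119 TPM (others 70.7 to 97.6).

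With AF154 added, the log2 change of 4 of the 9 members was lower in PAR than in any of the 7 other competent lines, as it was in 12.3% of all genes tested. It was higher in 0 members and in 18.6% of all genes. They were TGFB2 (-0.43, others -0.17 to 0.54), SMAD7 (-0.63, others -0.32 to 0.20), INHBA (-0.32, others -0.24 to 0.05) and SMAD3 (-0.24, others -0.02 to 0.14). The same 4 members lay below with library medians centred, where 16.2% of all genes lay below and 14.4% above, and with mitochondrial genes left out. With EA, PAR had the lowest TPM of all 9 lines in TGFB2, INHBA, TGFBR1, SMAD3, SMAD7 and SKIL, 6 of the 9 tested members, and in TGFBR3. It was lowest in 29.9% of all genes tested. TGFBI was in the midst of the other lines in PAR throughout, at 735, 945 and 946 TPM.

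KO, which carries no introduced AXL, could be set beside the 8 transduced lines untreated and with E. TGFBI was lower in KO than in all of them in both treatments, at 606 TPM (others 630 to 955) and 711 TPM (others 848 to 1225). No other member lay outside their range on the same side in both, and 6.01% of all genes tested did so on either side. With 1 KO line this has no replicate check.

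Beyond the members, 67 other genes of the pathway in 5 lists were looked at in the same fit. The lists, too, were chosen with earlier results known, and 59 of the genes had a mean of at least 1 TPM. With E, 28 of the 59 were higher and 18 lower at an adjusted p under 0.05 in limma, with a median log2 change of 0.16. Over all genes tested the shares were the 35.5% and 36.3% given above and the median was 0.01, and the counts of each list below are to be read against these. Among 16 other ligands and genes of ligand latency, 9 were higher and 4 lower, with a median of 0.67. INHA, the inhibin alpha chain, rose from 2.10 to 8.97 TPM (log2 change 1.69) and GDF15, a distant family member and stress hormone, from 2.83 to 9.25 TPM (1.43). LTBP2, a latent TGF-beta binding protein of the matrix, fell from 38.4 to 21.6 TPM (-0.84) and BMP4, a bone morphogenetic protein, from 50.9 to 33.8 TPM (-0.58).

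Of 7 other receptors, 3 were higher and 1 lower. BMPR2, a type II receptor for bone morphogenetic proteins, rose from 11.1 to 25.7 TPM (log2 change 1.15) and ACVR1, an activin and BMP type I receptor, from 6.51 to 8.61 TPM (0.36), while ENG (endoglin), a co-receptor related to TGFBR3, fell from 51.1 to 29.8 TPM (-0.76). Of 5 genes in the list of other SMADs and their anchors, 0 were higher and 2 lower. SMAD5, a SMAD of the BMP branch, fell from 23.8 to 16.4 TPM (-0.52) and ZFYVE9, the anchor SARA, from 11.9 to 8.84 TPM (-0.40). Feedback and restraint genes were evenly divided, with 4 higher and 4 lower of 11. BAMBI, a decoy receptor, rose from 3.94 to 20.3 TPM (2.11) and TGIF1, a corepressor, from 91.4 to 182 TPM (0.99), whereas the ubiquitin ligases SMURF2 (83.3 to 47.0 TPM, -0.82) and NEDD4L (63.0 to 38.1 TPM, -0.71) fell.

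Of 20 response genes, 12 were higher and 7 lower, with a median of 0.76. CDKN2B, a cell cycle inhibitor, rose from 14.0 to 151 TPM (log2 change 3.34) and TAGLN, an actin-binding protein, from 17.4 to 168 TPM (3.21). Both moved more than any member. In the other direction, SPHK1, a lipid kinase, fell from 19.98 to 5.64 TPM (-1.67) and ID1, a target of the BMP branch, from 94.6 to 51.5 TPM (-0.86). Each of these 17 named genes had an adjusted p of at most 0.00345 from limma and moved the same way in 10 of 10 lines. With AF154 none of the 59 passed in limma. An unadjusted p under 0.05 was found for 16 of the 59, a larger share than the 16.9% of all genes tested.

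**Figure D4:**
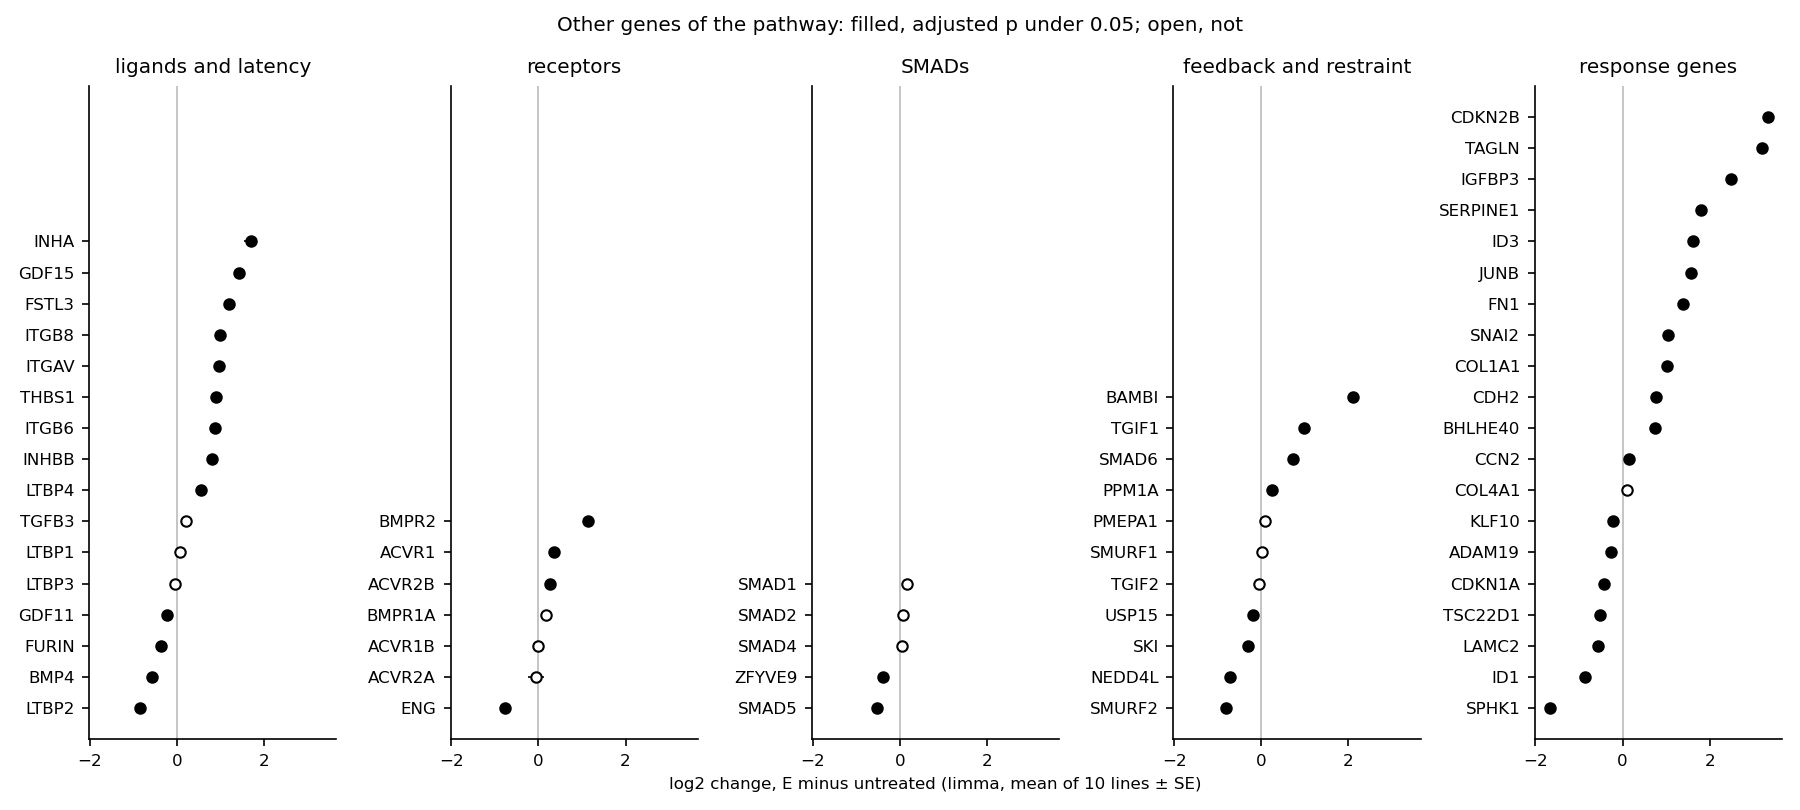
Log2 change with E (horizontal axes, mean of 10 lines ± SE, often smaller than the symbol) of the 59 other pathway genes tested, in 5 lists and ordered within each list. Filled circles had an adjusted p under 0.05 and open circles did not, and the response genes spread widest, from -1.67 for SPHK1 to 3.34 for CDKN2B.

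The genes whose log2 levels over the 29 libraries were most like each member were found by Pearson correlation, which for members that rose with E is high for any gene that rose in all lines. The libraries share their lines and treatments and are not independent. For TGFB2 they were PDLIM1, HTR1D and FSTL1 (each r = 0.99), and for INHBA MYH9 (0.99), ANXA8 (0.98) and MMP14 (0.98). ANXA8 has a near-identical copy, so its value is uncertain. SKIL shared MMP14 and MYH9 with INHBA (both 0.98), and was next nearest to CHST3 (0.98). SMAD7 was nearest to SH3BP5L (0.95), AHRR (0.94) and JUNB (0.94). After each treatment's mean was taken out, these correlations were between 0.66 and 0.75 for TGFB2, 0.74 and 0.86 for INHBA, 0.71 and 0.74 for SKIL and 0.38 and 0.55 for SMAD7.

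Members that moved little had other neighbours. For TGFB1 they were PPP6R1 (r = 0.81), AGTRAP (0.81) and PLEC (0.80), and for TGFBR2 DDI2 (0.88), ERAP2 (0.88) and RHOA (0.86). SMAD3 was nearest to TFPI2 (0.89), EIF4B (0.89) and RNF220 (0.88), and these kept correlations between 0.87 and 0.90 once the treatment means were removed. TGFBR1 was nearest to IDH2, TPM2 and KLHL9 (each 0.87), and TGFBI to RASGRP1, VCL and COL5A1 (each 0.85).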

How the data were processed

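The authors deposited TPM per transcript in 29 libraries of PC9 lines. Per the labels, the submitters' processing notes name kallisto and GRCh38, and the version, annotation and strand handling are not given in the sources used here. Of 188753 transcripts, 169797 had an identifier of GENCODE release 29 and were summed to 35579 genes. The others held between 2.65% and 2.99% of each library's TPM. The unit keeps no depth, so no count test or counting interval was made.

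The 14111 genes that reached 1 TPM on average over the 29 libraries were tested, a lower minimum than the 10 TPM named in the study's methods, which was an alternative. Values were log2(TPM + 1), a scale that understates changes of low genes. E and untreated (10 lines) and EA and E (8 lines) were compared by linear models (R 4.3.3, limma 3.58.1, eBayes with a mean-variance trend) with a term for each line since all libraries of a line are the same cells, and Benjamini-Hochberg adjustment over all genes with a threshold of 0.05. The steps were tested on simulated data.

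The members and lists were chosen with earlier results of these data known. Named genes were all members, the 2 largest rises and 2 largest falls past the threshold in each list with E, every list gene past it with AF154, and the 3 genes nearest to each member. Alternatives were a pseudocount of 0.1, other filters, centred or quantile-normalized libraries, no block, quality weights, mitochondrial genes left out, other line sets and each line left out. Those for PAR, the transcripts and the motifs were chosen after seeing the data. Promoters are the 250 bases before RefSeq starts (GRCh38.p14), listed for all 10 members. The window of SMAD7 lies wholly within exons and leaves 0 bases outside them. Python 3.11.15, numpy 2.4.6, pandas 2.3.3 and matplotlib 3.10.9 were used.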

Additional observations from a re-analysis of the deposited data

Results flagged for a closer look

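In 50 groups of libraries or of changes within lines, 5 for each member, a gap between the highest or lowest line and its neighbour was measured against the whole range, and 8 of the 50 had an unusually large one, where chance gives about 2.5 (about 1 in 20). In all 8 the line set apart was PAR, and groups that share PAR are not independent. INHBA was high in untreated PAR, at 79.8 TPM where the other lines ran from 44.6 to 56.5 TPM, and its change with E was small there, at 0.60 where the others ran from 1.01 to 1.41 on the log2 scale. The change of SKIL with E in PAR was 0.61, with the others between 1.22 and 1.57. TGFBR1 with EA was at 8.19 TPM in PAR and between 12.03 and 14.9 TPM elsewhere.

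SMAD3 stood apart 4 times. In PAR it had 65.9 TPM with E (others 83.9 to 96.7) and 55.7 TPM with EA (others 89.1 to 105), with a change of -0.17 with E (others 0.04 to 0.26) and of -0.24 with AF154 (other competent lines -0.02 to 0.14) on the log2 scale. The mitochondrial share of PAR was 14.4% of TPM untreated (others 11.4% to 14.2%), 17.4% with E (others 12.3% to 14.2%) and 16.4% with EA (others 12.9% to 17.4%). Its part in these results beyond the alternatives given above was not tested.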

How the results depend on the processing

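The number of members past the threshold with E was between 6 and 9 in the 19 alternatives to the 8 reported, with 6 when the line block was left out and 9 of 10 when all genes above 0 were tested, which adds TGFBR3. TGFB2, INHBA, TGFBR1, SMAD7, SKIL and TGFBI passed in all 19, and between 7 and 8 members passed with a line left out. TGFB1 never passed, with a log2 change between -0.08 and 0.03, and was above 0 (0.0319) with quantile normalization. TGFBR2 was lost without the block and SMAD3 in 5 alternatives. With AF154, 0 members passed in all 17 alternatives, and between 0 and 2 had an unadjusted p under 0.05. TGFB2 was below 0 with library medians centred (-0.0063) and without Y634F or Y821F (from -0.0582 to 0.0807 with a line left out), TGFBR1 was above 0 with the KD pair included (0.00094), and SMAD3 was below 0 with medians centred (-0.0051) and without Y750F (from -0.00032 to 0.0545 with a line left out). Over all genes, 67 passed with AF154, against 214 at 10 TPM, 146 without mitochondrial genes, 83 with quality weights, 55 with quantile normalization, 32 with medians centred, 27 with KD, 6 without a filter, 3 without the block and between 0 (without Y634F) and 38 with a line left out. With medians centred, the changes of 5 members in PAR with E lay outside those of the other lines, against 3 as deposited. TPM gives no depth, which limits TGFBR3 most.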
